A study of Mus musculus with 8 samples.

Results

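Immediate-early and activity-dependent genes were followed in mouse pancreatic islets after 2 h with inflammatory cytokines, with and without the transcription factor NFATc2 in insulin-expressing cells. The set was given as 40 gene symbols, and a gene was counted as a member when its symbol stood in the authors' deposited comparison of the genotypes under cytokines. Of the 40 symbols, 39 were among the 16333 genes of the tables, and Egr2 was not among the rows.

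Immediate-early genes are switched on within minutes of a stimulus by transcription factors already present in the cell, so their induction needs no new protein. Growth factor and stress signals reach them through MAP kinases and SRF, and membrane depolarisation, calcium and cAMP reach them through CREB and its coactivators. In beta cells, glucose closes potassium channels and lets calcium in, so several of these genes are known as markers of beta-cell activity, and NFAT factors are themselves activated by calcium through the phosphatase calcineurin. Many of the products are short-lived transcription factors, phosphatases or RNA-decay proteins that shape or end the response.

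The 4 groups were cytokine-treated islets of NFATc2βKO mice (KO below), untreated KO islets, cytokine-treated wild-type islets and untreated wild-type islets, each from 2 mice. All mice carried the strain label Agouti/C57BL6 and had received tamoxifen, which in the KO mice induced deletion of NFATc2 in insulin-expressing cells of the adult and in the wild-type mice led to no knockout. The culture protocol names C57BL/6 mice beside the transgenic ones, and whether both genotypes had 1 background is not stated further. The driver of the recombinase and the deleted exons are not given in the sources used here. The islets of each mouse were split after a night in 5.5 mM glucose. One portion stayed untreated. The other had 2 h of a cocktail in 11 mM glucose that held 5 ng/mL of IL1β, 10 ng/mL of TNFα and 50 ng/mL of IFNγ, so the action of the cytokines and of the 11 mM glucose cannot be told apart. The glucose of the untreated portion during those 2 h is not stated in the labels. The deposited tables call the genotypes KO and Mut. No label holds the name Mut, which was taken for wild type as the remaining genotype and is kept below.

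The tables hold group means of normalized counts, from which whole reads were recovered for each of the 8 libraries and 16236 genes (99.4%). The libraries held between 12900247 and 23794445 recovered reads. By 4 Y-linked genes every group held 1 female and 1 male library, which tied the libraries to the mice. The female library of cytokine-treated KO islets held 37 Y-linked reads, against 0 to 3 in the other female libraries. Nfatc2, the targeted gene, had a KO over Mut log2 fold change of -0.56 (SE 0.24) under cytokines in the authors' deposited table and -0.49 (SE 0.23) in the authors' deposited table for untreated islets. At FDRs of 0.474 and 0.903 neither passed the threshold of 0.05. In these bulk libraries fewer cells of a type and less RNA per cell cannot be told apart.

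The islet label fitted its markers, since the group means of the insulin gene Ins1 lay between 547000 and 621000 normalized counts and those of the glucagon gene Gcg between 192000 and 222000. Markers of other cells differed between the libraries. The summed level of 10 stromal markers was 14500 and 5430 normalized counts in the female and male library of cytokine-treated KO islets and 11100 and 6020 in those of untreated KO islets. In Mut islets the stromal sum was 11300 and 2830 with cytokines and 2560 and 2280 untreated, so the female Mut mouse stood out for its treated portion. The 8 measured leukocyte markers of 9 listed summed to between 2900 and 4370 in KO libraries and between 1890 and 2440 in Mut libraries, and the 9 endothelial markers to between 5230 and 6820 in KO libraries and between 8720 and 11300 in Mut libraries. The 4 measured lymphocyte markers of 6 listed summed to between 71 and 364 in KO libraries and between 25 and 47.5 in Mut libraries, and the authors' deposited table called 3 of them higher in KO islets with cytokines. The 9 acinar markers of 10 listed summed to 119000 and 22900 in the female and male library of cytokine-treated KO islets. In untreated KO islets the acinar sum was 70600 and 32200. In Mut islets it was 28700 and 6970 with cytokines and 61800 and 9790 untreated, so the female library was higher in every group. None of these lists was at 0 in any library, and their part in the results below was not tested.

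**Figure D1:**
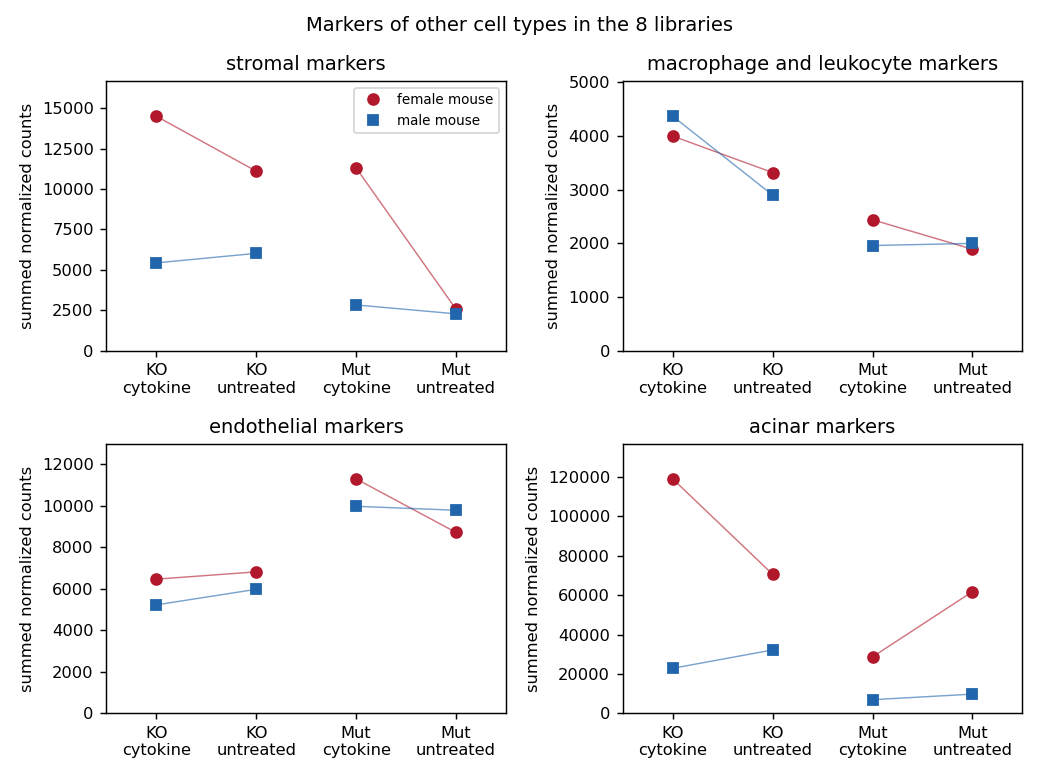
Summed normalized counts (y axes) of stromal, leukocyte, endothelial and acinar marker genes in the 8 libraries, by group on the x axes, with 1 point per library and lines joining the portions of a mouse. Stromal markers summed to 11300 in the treated portion of the female Mut mouse and to 2560 in its untreated portion, and all KO libraries lay above all Mut libraries for leukocyte markers.

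The question of the cytokine comparison was which members differed after 2 h. No earlier time was sampled, so a rise that had ended by 2 h would not be seen. Over both genotypes, 5 of the 39 members rose and 0 fell at an adjusted p below 0.05 in a limma fit with the mouse as block, and of all genes 0.628% rose and 0.283% fell. The members that rose were Gem, Nr4a3, Junb, Sik1 and Maff, and each was higher in the treated portion of all 4 mice. The median log2 change of the members was 0.22, against 0 over all genes, and 34 of the 39 were above 0 (87.2%), against 50.5% of all genes. At an unadjusted p below 0.05 the fit had 22 members higher and 1 lower, where 9.1% of all genes were higher and 7.59% lower. These 5 calls rested on the pairing of the portions, since limma without the mouse block called 0 of the 39 and 0 of all genes. That fit had 9 members at an unadjusted p below 0.05, against 4.71% of all genes. Leaving out a mouse left 3 calls without the KO female, 3 without the KO male, 2 without the Mut male and 6 without the Mut female, with Gem and Junb called each time. The fit without the KO female called 29 of all genes, against 148 with all mice, so members and all genes fell together there. For the fits without another mouse no share over all genes is given. Their counts therefore cannot be read as a change of the members alone.

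Within each genotype alone, the authors' deposited tables called 0 members in either direction, where they called 7 of all genes in KO islets (0.0429%) and 2 in Mut islets (0.0122%). Junb and Gem were the 2 members with an unadjusted p below 0.05 in each genotype by the authors' deposited tables, where 1.02% of all genes in KO islets and 0.918% in Mut islets had one. The deposited log2 fold changes were above 0 for 35 of the 39 members in KO islets, with a median of 0.20, and for 36 in Mut islets, with a median of 0.25, where the share above 0 among all genes was 50.3% in KO and 50.9% in Mut. With the mouse block, limma called Gem in Mut islets (log2 fold change 1.01, SE 0.13, adjusted p = 0.046) and 0 members in KO islets, where 0.148% of all genes were called in Mut and 0.117% in KO islets. At an unadjusted p below 0.05 that fit had 15 members in KO islets, against 8.33% of all genes, and 17 in Mut islets, against 12.1% of all genes. Without the block, limma called 0 members and 0% of all genes in both genotypes. Its unadjusted p was then below 0.05 for 5 members in KO islets (3.34% of all genes) and for 1, Gem, in Mut islets (0.838% of all genes).

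**Figure D2:**
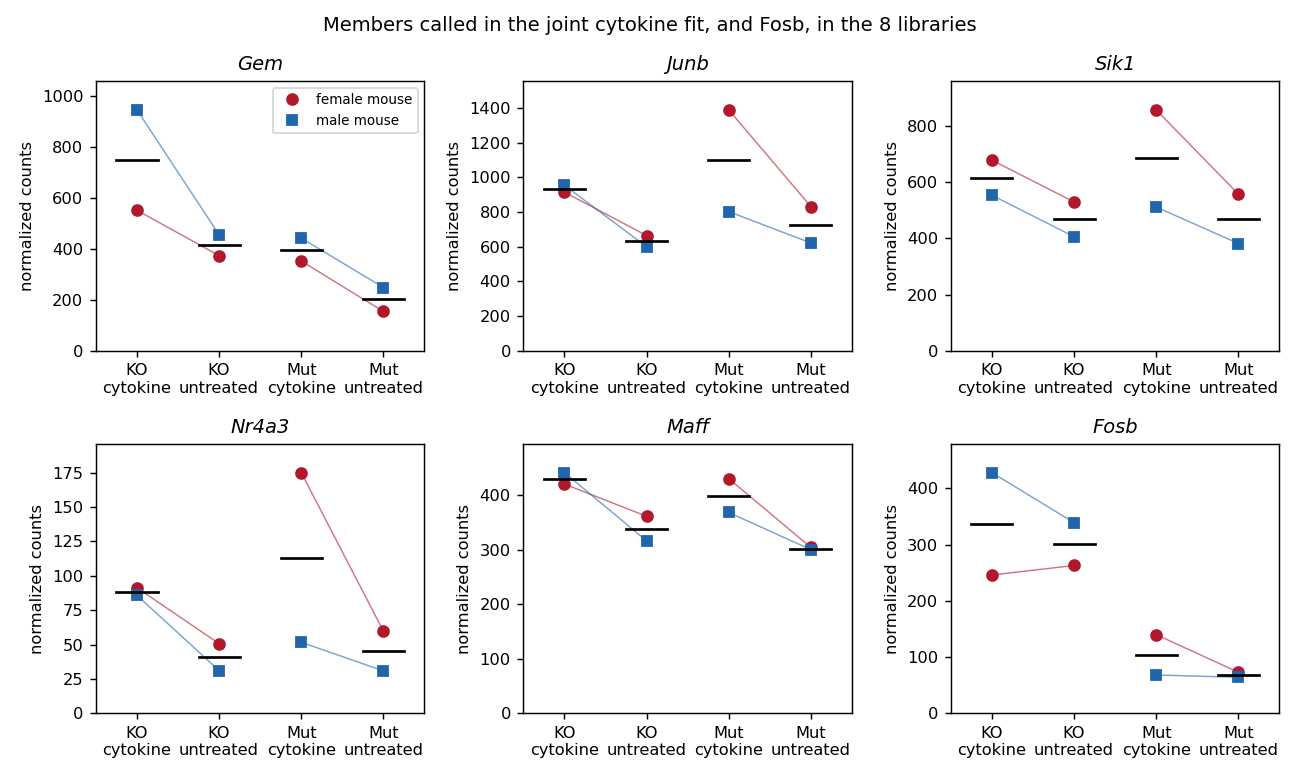
Normalized counts (y axes) of Gem, Nr4a3, Junb, Sik1, Maff and Fosb in the 8 libraries, by group on the x axes, with 1 point per library, lines joining the portions of a mouse and horizontal bars for group means. For the 5 genes other than Fosb the treated portion lies above the untreated one in every mouse, and for Fosb the KO libraries lie above the Mut libraries.

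Among the AP-1 subunits, the FOS and JUN family proteins that pair to bind DNA, Junb was the member that rose. Values of a group are given below for its female library and then for its male library. Overlap of treated and untreated libraries is described without a share over all genes, and with 2 libraries per group a lack of overlap is weak evidence. Junb (chr8:84974484-84978718, minus strand) had 915 and 955 normalized counts in cytokine-treated KO islets, against 665 and 600 in untreated KO islets. In Mut islets it had 1390 and 803 with cytokines, against 832 and 622 untreated. The treated libraries of KO islets lay above the untreated ones, whereas in Mut islets the treated male library lay below the untreated female one. The joint log2 change was 0.56 (SE 0.06, 1.47-fold, limma adjusted p = 0.00795). Prdx2 overlaps Junb on the other strand, and since strandedness of the libraries is not given, reads of both genes cannot be told apart there.

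Fos, the namesake of the family, had 190 and 305 normalized counts in cytokine-treated KO islets, against 265 and 196 in untreated KO islets, and 248 and 212 with cytokines, against 175 and 166 untreated, in Mut islets. It was higher with cytokines in 3 of 4 mice and lower in the KO female, and did not pass the test (joint log2 change 0.25, SE 0.16, limma adjusted p = 0.477). Jund, the JUN protein known for steady expression in resting cells, had 3000 and 3490 in cytokine-treated KO islets, against 2970 and 3480 in untreated KO islets. In Mut islets Jund had 2750 and 2080 with cytokines, against 2550 and 2510 untreated. Its joint log2 change was -0.04 (SE 0.06), the lowest of the 6 AP-1 members. Jun, the classical partner of FOS, and Fosl2, a FOS relative, were higher in all 4 mice with joint log2 changes of 0.22 and 0.26 and limma adjusted p-values of 0.0937 and 0.173.

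Of the small MAF factors, short leucine-zipper proteins without an activation domain of their own, Maff rose. Maff (chr15:79346621-79359076, plus strand) had 420 and 441 normalized counts in cytokine-treated KO islets, against 361 and 316 in untreated KO islets. In Mut islets it had 430 and 368 with cytokines, against 304 and 300 untreated. The treated libraries lay above the untreated ones in both genotypes. The joint log2 change was 0.37 (SE 0.07, 1.29-fold, limma adjusted p = 0.0482), and the call was lost when any 1 of the 4 mice was left out (adjusted p between 0.0715 and 0.167). Mafk was higher in all 4 mice by less, with a joint log2 change of 0.13 (SE 0.05, limma adjusted p = 0.252).

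The NR4A orphan nuclear receptors are induced by calcium and cAMP in many cell types, and in beta cells they are known for links to proliferation and oxidative metabolism. Nr4a3 (chr4:48045153-48086447, plus strand) had 91.3 and 85.8 normalized counts in cytokine-treated KO islets, against 50.7 and 31.1 in untreated KO islets. In Mut islets it had 175 and 51.7 with cytokines, against 59.8 and 30.9 untreated. Treated and untreated libraries did not overlap in KO islets, and in Mut islets the treated male library lay below the untreated female one. Its joint log2 change of 1.13 (SE 0.17, 2.19-fold, limma adjusted p = 0.0271) was the highest of the 39 members. The adjusted p was 0.0912 without the KO female, 0.0915 without the KO male, 0.0624 without the Mut male and 0.0489 without the Mut female.

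The other NR4A members did not pass the test. Nr4a1 had 312 and 511 normalized counts in cytokine-treated KO islets, against 352 and 397 in untreated KO islets, and 414 and 252 with cytokines, against 351 and 275 untreated, in Mut islets. It was thus higher in 2 of the 4 mice (joint log2 change 0.08, SE 0.09, limma adjusted p = 0.749). Nr4a2 had 395 and 487 in cytokine-treated KO islets, against 320 and 392 in untreated KO islets. In Mut islets Nr4a2 had 387 and 411 with cytokines, against 387 and 410 untreated. Both KO mice were therefore about 0.3 higher on the log2 scale and both Mut mice level. The KO response minus the Mut response of Nr4a2 was 0.31 (SE 0.31, adjusted p = 1) from the fold changes in the authors' deposited tables, which did not pass the test.

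The stretches of genome before the starts of Junb, Maff, Nr4a3 and Nr4a2 are shown because 3 of these genes rose and Nr4a2, a close relative of Nr4a3, did not pass the test. Gem and Sik1, which also rose, had no promoter entry, so the members that rose are shown only in part. Each runs 5′ to 3′ on the strand of the gene and comes from RefSeq on GRCm38.p6, cut where the annotated transcript begins. Capitals mark the core of a cAMP-response element (CRE), TGACG or its reverse complement CGTCA, and the EGR site GCGNGGGCG.
Junb: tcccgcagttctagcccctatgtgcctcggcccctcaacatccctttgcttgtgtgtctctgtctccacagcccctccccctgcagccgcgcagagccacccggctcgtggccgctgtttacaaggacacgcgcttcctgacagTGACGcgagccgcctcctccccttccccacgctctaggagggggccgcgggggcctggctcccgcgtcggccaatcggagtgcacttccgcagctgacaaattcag
Maff: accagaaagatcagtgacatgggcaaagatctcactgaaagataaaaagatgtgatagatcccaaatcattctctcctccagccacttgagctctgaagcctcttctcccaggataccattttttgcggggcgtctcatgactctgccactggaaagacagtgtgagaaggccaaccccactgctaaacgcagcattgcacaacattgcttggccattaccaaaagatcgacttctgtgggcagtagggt
Nr4a3: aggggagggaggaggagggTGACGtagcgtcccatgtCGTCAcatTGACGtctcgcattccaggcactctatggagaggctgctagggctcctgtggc
Nr4a2: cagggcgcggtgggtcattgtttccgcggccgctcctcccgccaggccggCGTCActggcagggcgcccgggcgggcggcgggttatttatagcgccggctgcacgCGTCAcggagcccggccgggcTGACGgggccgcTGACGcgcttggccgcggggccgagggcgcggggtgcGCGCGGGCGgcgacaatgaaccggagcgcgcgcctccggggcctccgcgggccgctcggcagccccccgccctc
The Junb stretch (chr8:84978749-84978998, minus strand) holds 1 CRE core, and that of Maff (chr15:79346371-79346620, plus strand) holds neither motif. The 98 bases printed for Nr4a3 (chr4:48045055-48045152, plus strand) hold 3 CRE cores, and those for Nr4a2 (chr2:57124004-57124253, minus strand) hold 4 CRE cores and 1 EGR site. A match of letters is a description of the sequence, and binding was not measured.

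Across the members with a promoter entry, 27 of 40, the 250 bases before the RefSeq start were searched on both strands and set beside those of 10763 genes. The CRE core TGACG was in 17 of the 27 (63%) and in 27.1% of all promoters. The full CRE, TGACGTCA, which contains the core, was in 2 (7.41%), Btg2 and Dusp1, and in 2.85% of all. The EGR site GCGNGGGCG was in 11 (40.7%) and in 9.01% of all. SRF binds the CArG box, which was in 3 member promoters (11.1%), of Dusp5, Srf and Zfp36, and in 1.16% of all. The κB site, bound by NF-κB, was in 5 (18.5%), of Fos, Fosb, Fosl2, Ier3 and Npas4, and in 8.71% of all. The AP-1 site TGANTCA was in 1 (3.7%), of Zfp36l1, and in 4.21% of all, and the NFAT core GGAAA was in 11 (40.7%) and in 53.8% of all. These shares describe the promoters and were not tested.

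Among the 8 measured zinc-finger and other inducible transcription factors, 0 passed the adjusted threshold of the limma fit in either direction. In that fit 6 were higher at an unadjusted p below 0.05, against 9.1% of all genes. Egr1, the best-known immediate-early zinc finger, had 415 and 393 normalized counts in cytokine-treated KO islets, against 374 and 296 in untreated KO islets. In Mut islets Egr1 had 605 and 301 with cytokines, against 553 and 236 untreated. Every mouse was higher with cytokines, but the female and male Mut libraries differed by more than the treatments did (joint log2 change 0.26, SE 0.07, limma adjusted p = 0.114). Klf4, a Krüppel-like factor known from reprogramming and growth arrest, had 239 and 222 in cytokine-treated KO islets, against 201 and 169 in untreated KO islets. Klf4 in Mut islets had 223 and 154 with cytokines, against 154 and 105 untreated. Its joint log2 change was 0.43 (SE 0.09, limma adjusted p = 0.0614), and treated and untreated KO libraries did not overlap.

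Klf6, a Krüppel-like factor induced by injury in several tissues, had 1130 and 959 normalized counts in cytokine-treated KO islets, against 953 and 827 in untreated KO islets. In Mut islets Klf6 had 834 and 955 with cytokines, against 819 and 884 untreated, so the treated KO libraries lay just above the untreated ones and the Mut libraries overlapped. Klf2, a Krüppel-like factor abundant in endothelial cells, had 95.1 and 58.6 in cytokine-treated KO islets, against 68.5 and 58.4 in untreated KO islets, and in Mut islets 58.6 and 43.3 with cytokines, against 46.5 and 39 untreated. Myc, the growth-promoting factor, had 307 and 259 in cytokine-treated KO islets, against 305 and 287 in untreated KO islets, and in Mut islets 394 and 246 with cytokines, against 278 and 230 untreated. Klf2 and Myc did not pass the limma fit (adjusted p = 0.453 and 0.624). Egr3, Klf10 and Csrnp1 had joint log2 changes between 0.19 and 0.71 with limma adjusted p-values between 0.205 and 0.288, and the highest change of these was that of Egr3, a close relative of Egr1, whose libraries held 13.3 to 54.3 normalized counts.

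Of the factors that carry calcium, cAMP and serum signals, Npas4 was the member with lower values in all 4 mice, where 12.5% of all genes were lower in all 4. Npas4, a factor induced by calcium entry in neurons and present in beta cells, had 110 and 216 normalized counts in cytokine-treated KO islets, against 131 and 241 in untreated KO islets. In Mut islets it had 98.8 and 110 with cytokines, against 121 and 130 untreated. Treated and untreated Mut libraries did not overlap, but the change did not pass the test (joint log2 change -0.23, SE 0.09, limma adjusted p = 0.232). Crem, whose isoforms activate or repress cAMP targets, had 1580 and 1950 in cytokine-treated KO islets, against 1380 and 1660 in untreated KO islets, and 1210 and 1770 with cytokines, against 1180 and 1550 untreated, in Mut islets. Each mouse was higher, with a joint log2 change of 0.16 (SE 0.04, limma adjusted p = 0.117). Srf, the serum response factor, had 832 and 818 in cytokine-treated KO islets, against 822 and 835 in untreated KO islets. In Mut islets Srf had 1020 and 638 with cytokines, against 852 and 770 untreated, and its joint log2 change was -0.01 (SE 0.07).

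Proteins that feed back on kinases and G proteins held 2 of the 5 members that rose. Gem (chr4:11704457-11714752, plus strand) encodes a small GTPase of the RGK family, which holds back voltage-gated calcium channels. It had 551 and 945 normalized counts in cytokine-treated KO islets, against 373 and 455 in untreated KO islets. In Mut islets Gem had 352 and 442 with cytokines, against 154 and 248 untreated. Treated libraries lay above untreated ones in both genotypes. The joint log2 change was 0.91 (SE 0.10, 1.88-fold), with the smallest limma adjusted p of the members at 0.00433, and between 0.82 and 1.02 when 1 mouse was left out.

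Sik1 (chr17:31844250-31855804, minus strand), a salt-inducible kinase that is itself a CREB target and phosphorylates the CREB coactivators, had 679 and 554 normalized counts in cytokine-treated KO islets, against 530 and 406 in untreated KO islets. In Mut islets it had 858 and 512 with cytokines, against 558 and 382 untreated. The KO libraries did not overlap, and in Mut islets the treated male library lay below the untreated female one. Sik1 had a joint log2 change of 0.46 (SE 0.06, 1.38-fold, limma adjusted p = 0.011), and its adjusted p was 0.0562 without the Mut male.

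Dual-specificity phosphatases remove phosphate from MAP kinases. Dusp1 had 387 and 450 normalized counts in cytokine-treated KO islets, against 361 and 359 in untreated KO islets, and 590 and 425 with cytokines, against 386 and 368 untreated, in Mut islets. Treated and untreated libraries did not overlap in either genotype, but the joint log2 change of 0.31 (SE 0.08, limma adjusted p = 0.115) did not pass. Dusp5 had 675 and 782 in cytokine-treated KO islets, against 710 and 698 in untreated KO islets, and 873 and 677 with cytokines, against 807 and 719 untreated, in Mut islets, with 2 mice higher and 2 lower. Dusp4 and Dusp6 were higher in all 4 mice with joint log2 changes of 0.23 and 0.21 and limma adjusted p-values of 0.23 and 0.175. Rgs2, a regulator that shortens signalling by Gq-coupled receptors, had 606 and 841 in cytokine-treated KO islets, against 558 and 804 in untreated KO islets, and 380 and 473 with cytokines, against 432 and 496 untreated, in Mut islets. Its joint log2 change was -0.02 (SE 0.06).

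The members that act in mRNA decay and growth restraint all had joint log2 changes above 0, between 0.07 and 0.33. In the limma fit 0 of 5 passed, with 2 higher at an unadjusted p below 0.05, against 9.1% of all genes. Zfp36, tristetraprolin, which marks inflammatory mRNAs for decay, had 480 and 504 normalized counts in cytokine-treated KO islets, against 458 and 411 in untreated KO islets, and 570 and 364 with cytokines, against 472 and 397 untreated, in Mut islets. Its relative Zfp36l2 had 925 and 796 in cytokine-treated KO islets, against 789 and 799 in untreated KO islets, and 1030 and 830 with cytokines, against 783 and 681 untreated, in Mut islets. The Mut libraries of Zfp36l2 did not overlap (joint log2 change 0.23, SE 0.06, limma adjusted p = 0.137). Zfp36l1, also of this family, was higher in all 4 mice (0.33, SE 0.07, limma adjusted p = 0.0702). The antiproliferative genes Btg1 and Btg2 had joint log2 changes of 0.08 and 0.07.

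The immediate early response proteins Ier2, Ier3 and Ier5 had joint log2 changes of 0.42, 0.28 and 0.12. In the limma fit 0 of the 3 passed, with 2 higher at an unadjusted p below 0.05, against 9.1% of all genes. Ier3, a target of NF-κB known in cell survival, had 367 and 278 normalized counts in cytokine-treated KO islets, against 329 and 217 in untreated KO islets. Ier3 in Mut islets had 622 and 290 with cytokines, against 475 and 245 untreated. Every mouse was higher, and the sexes lay farther apart than the treatments (limma adjusted p = 0.0856). Ier2, a nuclear protein, had the smallest limma adjusted p of the 3 at 0.0753.

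The matricellular CCN proteins Cyr61 and Ctgf, targets of SRF and YAP secreted into the matrix, differed between mice. Ctgf had 278 and 231 normalized counts in cytokine-treated KO islets, against 395 and 311 in untreated KO islets, so both treated KO libraries lay below both untreated ones. In Mut islets Ctgf had 439 and 345 with cytokines, against 314 and 417 untreated, higher in the female and lower in the male. The joint log2 change was -0.18 (SE 0.14, limma adjusted p = 0.577), and without the Mut female limma called Ctgf lower. Cyr61 had 190 and 113 in cytokine-treated KO islets, against 164 and 124 in untreated KO islets, and 302 and 139 with cytokines, against 199 and 148 untreated, in Mut islets. The stromal marker sum of the Mut female, in which both genes were highest with cytokines, was 11300 in the treated and 2560 in the untreated portion, and its part in these values was not tested.

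**Figure D3:**
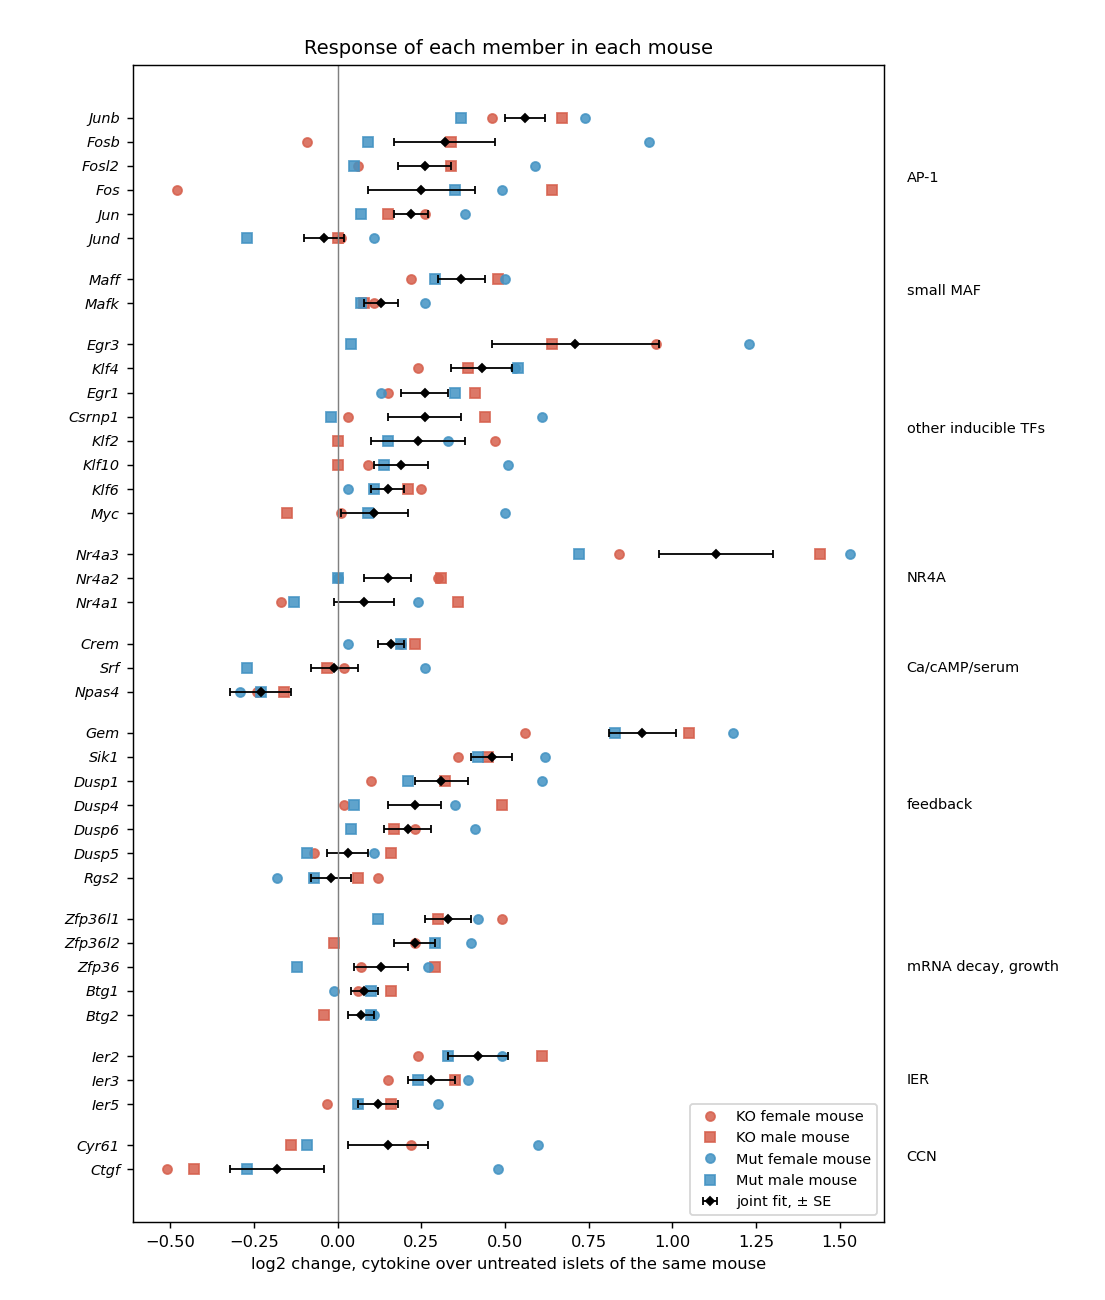
Log2 change of each member with cytokines (x axis, treated over untreated portion of the same mouse) for the 4 mice, with members in rows grouped by role, 1 point per mouse and black diamonds with bars for the joint fit ± 1 SE. Points of 20 members lie above 0 in all 4 mice, and those of Npas4 lie below 0 in all 4.

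Across mice, 20 of the 39 members (51.3%) were higher with cytokines in all 4, where 12.5% of all genes were. The median log2 change of the members was 0.12 in the KO female, 0.29 in the KO male, 0.40 in the Mut female and 0.09 in the Mut male. Over all genes the medians were 0.01, -0.01, 0 and 0.01 in the same mice. The KO mice and the Mut mice thus overlapped, with the highest and the lowest median both in Mut mice. The members are measured in the same libraries and are not independent of each other.

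The comparison of genotypes asked which members differed when NFATc2 had been deleted in insulin-expressing cells. In untreated islets 1 of the 39 members, Fosb, rose and 0 fell in the authors' deposited table at an FDR below 0.05, where 0.355% of all genes rose and 0.0551% fell. With cytokines Fosb again was the 1 member called in the authors' deposited table, higher, and 0 fell, where 0.814% of all genes rose and 0.184% fell. The median log2 fold change of the members, KO over Mut, was 0.10 untreated and 0.04 with cytokines, against 0 over all genes. Both comparisons use islets of the same mice, so the second is no independent repeat of the first.

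Fosb (chr7:19302696-19310051, minus strand), the FOS protein whose truncated product ΔFosB accumulates on repeated stimulation of neurons, had 246 and 428 normalized counts in cytokine-treated KO islets, against 140 and 68.3 in cytokine-treated Mut islets. Untreated, it had 263 and 339 in KO islets, against 73.1 and 64.2 in Mut islets. All 4 KO libraries lay above all 4 Mut libraries. The group means untreated were 301 ± 53.8 in KO and 68.6 ± 6.32 in Mut islets (SD, n = 2 each), and with cytokines 337 ± 129 in KO and 104 ± 50.8 in Mut islets. The authors' deposited table for untreated islets gave a log2 fold change of 2.13 (SE 0.41, 4.39-fold, FDR = 3.0e-04), and the authors' deposited table for cytokines gave 1.70 (SE 0.40, 3.26-fold, FDR = 0.00518). In limma without the sex of the mouse as block the fold changes were alike at 2.11 and 1.72 but not called (adjusted p = 0.176 and 0.689). Those fits called 0 of all genes in both conditions. With the sex block Fosb was called (limma adjusted p = 4.9e-04 and 6.4e-07). The blocked fits had few residual degrees of freedom and called 4.32% of all genes untreated and 5.78% with cytokines. With any 1 mouse left out, limma had a single library in 1 genotype, so those fits cannot show whether the call holds. Their log2 fold change was 1.92 to 2.29 untreated and 1.21 to 2.23 with cytokines.

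The 244 bases before the annotated start of Fosb (chr7:19310052-19310295, minus strand, GRCm38.p6) are shown because Fosb was the member called between genotypes. Capitals mark the CRE core TGACG, the κB site and the EGR site GCGNGGGCG.
Fosb: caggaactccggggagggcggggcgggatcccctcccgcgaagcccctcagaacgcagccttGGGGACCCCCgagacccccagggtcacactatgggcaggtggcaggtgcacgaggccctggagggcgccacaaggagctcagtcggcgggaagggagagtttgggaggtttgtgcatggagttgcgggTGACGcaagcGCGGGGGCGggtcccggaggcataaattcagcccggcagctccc
The stretch holds 1 match to each, and the NFAT core GGAAA was not in the letters searched.

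Gem, called in the cytokine response, also had higher values in KO islets. Its values given above put both KO libraries above both Mut libraries in each condition, and the authors' deposited table gave a log2 fold change of 1.04 (SE 0.33, FDR = 0.165) untreated. With cytokines the authors' deposited table gave 0.91 (SE 0.32, FDR = 0.208), so neither passed. In limma with the sex of the mouse as block Gem was called in both conditions (log2 fold change 1.07 and 0.87, adjusted p = 0.00376 and 2.7e-04), and without it in neither (adjusted p = 0.609 and 0.84).

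For Rgs2 all 4 KO libraries, at 558 to 841 normalized counts, lay above all 4 Mut libraries, at 380 to 496. The authors' deposited table gave a log2 fold change of 0.55 (SE 0.26, FDR = 0.846) untreated and, with cytokines, 0.76 (SE 0.26, FDR = 0.165). Limma called Rgs2 in both conditions with the sex block (adjusted p = 0.0324 and 0.00159) and in neither without it (adjusted p = 0.716 and 0.771). Jund, given above, and Ier5, a stress-induced protein tied to the heat-shock factor, also had all KO libraries above all Mut libraries. Ier5 had 721 and 916 in cytokine-treated KO islets, against 687 and 696 in cytokine-treated Mut islets, and 736 and 818 in untreated KO islets, against 557 and 666 in untreated Mut islets. Jund had a log2 fold change of 0.35 (SE 0.17, FDR = 0.965) untreated and 0.43 (SE 0.17, FDR = 0.434) with cytokines in the authors' deposited tables. Together these were 4 of 39 members with all KO above all Mut libraries (10.3%), against 5.36% of all genes, and 0 members had the reverse, against 4.74%.

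Both KO libraries lay below both Mut libraries for 4 members untreated (Btg1, Btg2, Dusp1 and Dusp5) and for 4 with cytokines (Btg1, Btg2, Ctgf and Dusp6). That was 10.3% of the members in each condition, against 18.3% of all genes untreated and 14.2% with cytokines. The reverse held for 15 members untreated (38.5%, against 18.7% of all genes) and for 8 with cytokines (20.5%, against 14.8%). Btg2, an antiproliferative gene induced by p53, had 2750 and 2260 normalized counts in cytokine-treated KO islets, against 3340 and 2910 in cytokine-treated Mut islets, and 2560 and 2320 untreated in KO islets, against 3100 and 2710 untreated in Mut islets. Btg1 had 2420 and 2210 with cytokines in KO islets, against 2820 and 2500 in Mut islets, and 2320 and 1970 in untreated KO islets, against 2850 and 2330 in untreated Mut islets. Neither gene passed the test, and Btg2 had a deposited log2 fold change of -0.25 (FDR = 1) untreated and -0.32 (SE 0.16, FDR = 0.764) with cytokines in the authors' deposited tables. Ctgf under cytokines had a KO over Mut log2 fold change of -0.62 (SE 0.25, FDR = 0.438), as the authors' deposited table has it, and limma called it with the sex block (adjusted p = 0.0309) but not without it (adjusted p = 0.828). Untreated, its log2 fold change was -0.05. Endothelial markers summed to 5230 to 6820 in KO and 8720 to 11300 in Mut libraries, and their part in these differences was not tested.

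**Figure D4:**
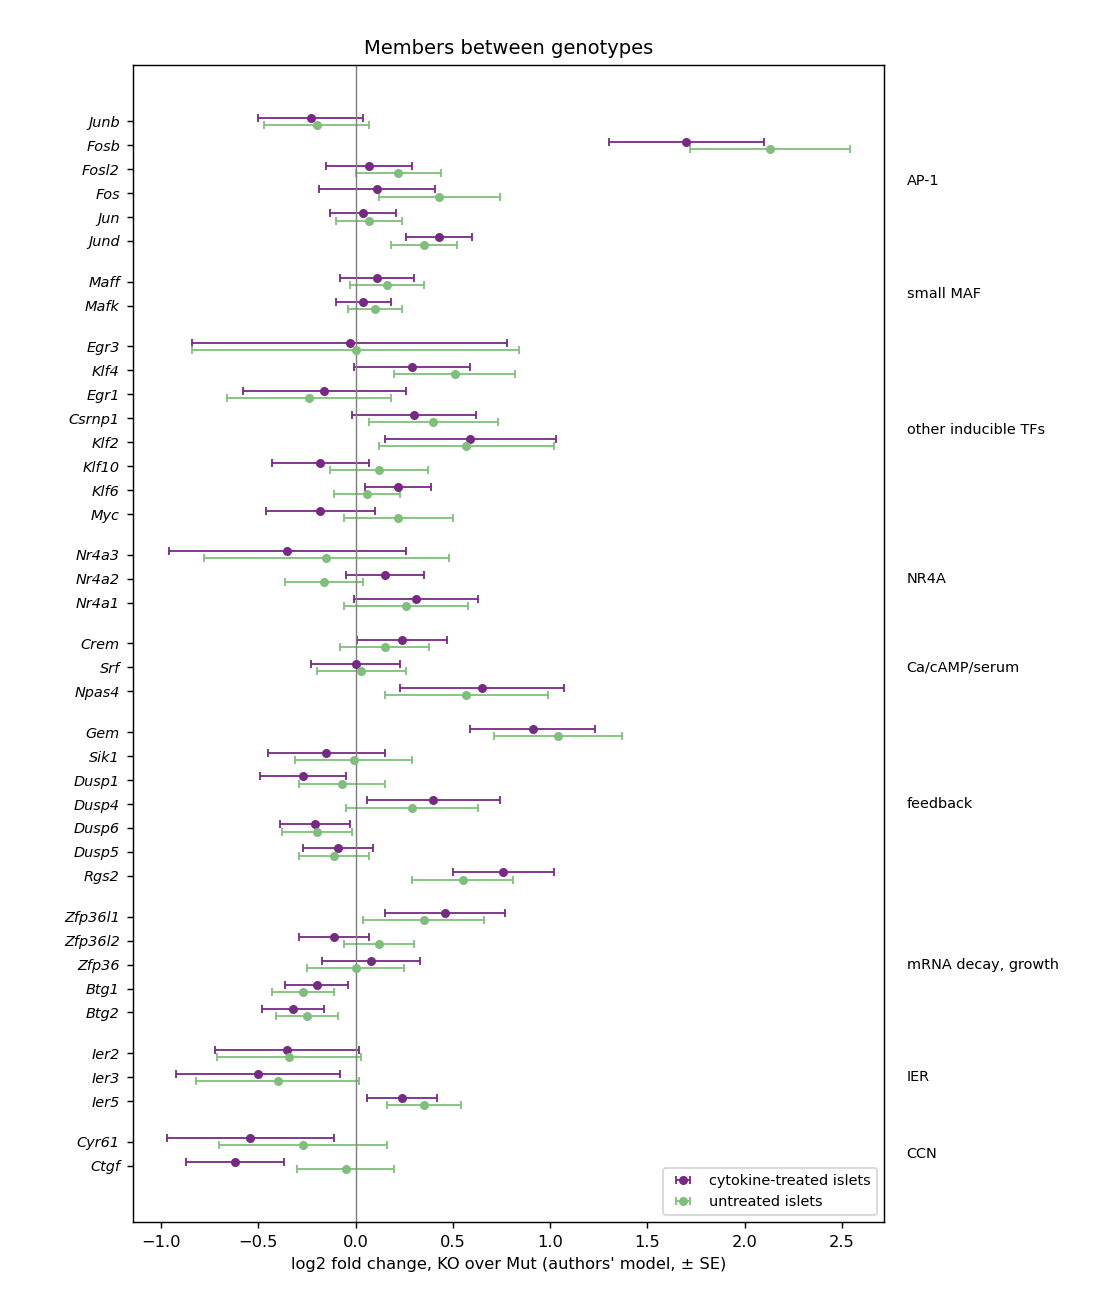
Log2 fold change of each member, KO over Mut (x axis, the authors' model, with bars of 1 SE), in cytokine-treated and in untreated islets, with members in rows. Fosb lies at 1.70 with cytokines and 2.13 untreated, apart from the other members, which lie between -0.62 and 1.04.

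Whether the cytokine response itself differed between genotypes was tested as the KO response minus the Mut response of the authors' deposited fold changes. At an adjusted p below 0.05, 0 of the 39 members and 0 of all genes (0%) were called, and 0 members had an unadjusted p below 0.05, where 0.22% of all genes did. Limma's interaction term called 0 members and 0% of all genes with the mouse block and 0 members without it. At an unadjusted p below 0.05 it had 2 members with the block, Ctgf and Nr4a2 (adjusted p = 0.998 each), against 4.04% of all genes. The largest difference of a member was that of Ctgf, at -0.59 (SE 0.39, adjusted p = 1). Among the 5 members that rose the differences were between -0.19 (Nr4a3, SE 0.95) and -0.02 (Junb, SE 0.37). Their standard errors ran from 0.3 (Maff) to 0.95, so they leave room for much larger differences in either direction. In limma the Ctgf difference was -0.95 without the Mut male and -0.19 without the Mut female. Each of these fits holds a single Mut mouse, so they cannot show whether the response of Ctgf differed between genotypes.

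Sexes were not a comparison of the study, but every group held a female and a male mouse. In all 4 groups the female library was above the male one for 14 of the 39 members (35.9%), among them Egr1, Ier3, Sik1 and Nr4a3, against 19.9% of all genes. It was below the male one for 6 (15.4%), Crem, Gem, Ier5, Npas4, Nr4a2 and Rgs2, against 19.4% of all genes. Among the marker lists, acinar and alpha-cell sums were also higher in the female library of every group, and duct sums were lower. The 4 recovered alpha-cell markers of 5 listed summed to 11900 to 12900 in female and 4780 to 6590 in male libraries. The 5 duct markers summed to 13300 to 15800 in female and 21000 to 24900 in male libraries. The part of these markers in the member patterns was not tested. With 1 mouse of each sex per genotype, sex and the individual mouse cannot be told apart.

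Genes outside the set that belong to the same pathways were read beside it. Of 40 measured other primary response genes, 5 rose and 0 fell in the joint limma fit, where 0.628% of all genes rose and 0.283% fell, and their median log2 change was 0.14. The 3 with the smallest p were Cebpd (0.50, SE 0.07, adjusted p = 0.0221), a C/EBP factor of the acute phase, Nfkbiz (0.26, SE 0.04, adjusted p = 0.0291), an atypical IκB protein, and Dusp10 (0.31, SE 0.05, adjusted p = 0.0323), a phosphatase of stress kinases. In the authors' deposited table Vgf, a neuroendocrine granule peptide, was lower in untreated KO islets (log2 fold change -0.60, SE 0.15, FDR = 0.0254). Of 15 other AP-1, ATF and MAF factors 0 were called in the joint limma fit, with 4 higher at an unadjusted p below 0.05, against 9.1% of all genes, and the repressors Bach1 and Bach2, partners of the small MAF factors, had adjusted p-values of 0.157 and 0.171.

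For the signalling genes upstream, mRNA was measured and the activity of the proteins was not. Of 37 genes of the ERK, SRF and CREB routes 0 passed the joint limma fit, with a median of 0.02. At an unadjusted p below 0.05, 6 were higher and 1 lower, where 9.1% of all genes were higher and 7.59% lower. Spred1, an inhibitor of the ERK route, had 0.35 (SE 0.07, adjusted p = 0.0586), the receptor gene Egfr 0.22 (SE 0.05, adjusted p = 0.0733) and the inhibitor Spry2 0.35 (SE 0.08, adjusted p = 0.0908). Of 12 Hippo and YAP genes 0 passed the limma fit, with 4 higher at an unadjusted p below 0.05, against 9.1% of all genes. Ajuba, Amotl1 and Tead1 had the smallest p-values of these (limma adjusted p = 0.241, 0.249 and 0.25).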

How the data were processed

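RNA from islets of 2 mice per group was sequenced as 8 libraries. Trizol extraction and Illumina protocols were used, per the labels, with no word on strand. Without giving versions or roles, the submitters' processing notes list GRCm38 as the build and DESeq2, HISAT2 and HTSeq as tools. The deposited signal columns hold means of normalized counts over a group or over all libraries. The deposited log2 fold changes, the score (a Wald statistic) and the p-values with their FDR come from the authors' own model. Dividing the log2 fold change by the score gave its standard error. Genotype fold changes are KO over Mut, and their sign matched the group means for 100% of the genes with an absolute log2 fold change over 0.05 (12395 untreated and 12452 with cytokines). The smallest mean over all libraries was 23.2, so low genes had been removed before deposit.

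Each group mean combines the whole reads of 2 libraries, weighted by constants that are the same for every gene, so its digits gave whole reads per library for 16236 of 16333 genes, 16095 with 1 solution in every group and 141 through the mean over all libraries. Recovery and fits were tested on simulated data. The joint response used limma 3.58.1 in R 4.3.3 with a trend, on log2(normalized count + 1), the mouse as block and Benjamini-Hochberg adjustment, two-sided. The mouse pairs the portions by design: the deviations of same-mouse libraries correlated at 0.781 in KO and 0.788 in Mut over 12272 genes. The interaction divided the difference of both deposited cytokine fold changes by its standard error (their errors added in quadrature), two-sided normal. Within groups the replicate is the mouse.

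The members and lists were chosen with earlier results of these data known. Per-library values are given for members called in any comparison, for the 6 with the smallest deposited p in each of the 4 comparisons and for fixed representatives of each role; Nr4a2 was added after its values were seen. Alternatives covered the block, library-total scaling, a pseudocount of 5, a mean of at least 100, a threshold of 0.1, voom weights and each mouse left out. Positions come from GENCODE M21 and promoter sequences from RefSeq on GRCm38.p6.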

Additional observations from a re-analysis of the deposited data

Results flagged for a closer look

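Srf and Cyr61 had a response of one direction in every female and of the other in every male. For Srf the log2 change with cytokines was 0.02 in the KO female and 0.26 in the Mut female, and -0.03 in the KO male and -0.27 in the Mut male, a mean difference between females and males of 0.29. For Cyr61 it was 0.22 in the KO female and 0.60 in the Mut female, and -0.14 in the KO male and -0.09 in the Mut male, a mean difference of 0.52. The KO responses of Srf were small, so its pattern rested on the Mut mice. How many of all genes had such a pattern was not counted, and the difference was not tested.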

How the results depend on the processing

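The count of members called depended most on the mouse block and on single mice. Joint response: 5 with the block, in a fit that called 148 of all genes, and 0 without the replicate block, in a fit that called 0 of all genes. The count was 4 with a mean of at least 100 (Nr4a3 was outside that filter) and 5 with library-total scaling, a pseudocount of 5 or voom weights. Leaving out 1 mouse gave 2 to 6, and the fit without the KO female called 29 of all genes. Counts over all genes of the other joint fits of this kind are not given here. KO cytokine response: 0, and 0 to 9 leaving out 1 mouse, the 9 without the Mut female and 8 without the Mut male, in fits that called 450 and 333 of all genes, against 19 with all mice. Mut cytokine response: 0, but 1 (Gem) with the replicate block, library-total scaling or a pseudocount of 5, and 1 to 15 leaving out 1 mouse, the 15 without the Mut male, in a fit that called 1216 of all genes, against 24 with all mice, and in which the lone Mut mouse is assumed to vary like the others. KO over Mut: the replicate block by sex gave 3 (Fosb, Gem and Rgs2) untreated and 4 (with Ctgf lower) with cytokines, each also with library-total scaling or a pseudocount of 5. Without the replicate block 0 members and 0 of all genes were called in both. With any 1 mouse left out, 1 genotype kept a single library per condition, so calls of those fits are not given. Interaction: 0. With any 1 mouse left out, 1 genotype kept a single mouse, so calls of those interaction fits are not given. The Fosb interaction was -0.40 and ranged from -0.81 without the Mut male to 0.03 without the Mut female. Causes were not tested. The replicate block changed no other count of members called. Depth: every library held at least 12900247 reads. With the mouse block, limma p-values cover the spread of the cytokine responses between these mice, not the spread of their levels. Without a block they cover the spread between the libraries of these mice.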
